A study of Rattus norvegicus with 6 samples.

Results

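The genes described here are 40 genes of DNA replication and mitosis, followed through the ovaries of lean and overfed rats. They were chosen by name as a cell cycle module, with earlier results of these data known. A gene counted as measured when at least 1 probe set of the array is annotated to it and to no other gene. This left 38 of the 40, with 53 probe sets, among 14217 genes measured on the array in the same way. Rrm2, whose probe sets are shared with another gene, and Tpx2 were not measured by this rule. The probe sets of a gene were averaged, which concerned 11 of the 38 genes, and the other 27 had 1 probe set each.

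The ovaries came from female rats fed liquid diets by total enteral nutrition, that is through a feeding tube, for 28 days. The lean group received 155 kcal and the overfed group 220 kcal, each per kg of metabolic body weight. All females were then mated with lean males, and their ovaries were frozen 4.5 days after coitus. Each of the 6 Affymetrix arrays held total RNA of 1 ovary pool, 3 lean and 3 overfed, and the labels name no strain, age or number of animals in a pool. P-values below therefore measure the spread between pools.

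A dividing cell copies its genome in S phase and separates the copies in mitosis, and the genes for these steps are transcribed in waves. Replication genes are switched on by E2F transcription factors at the G1/S transition, when cyclin E and its kinase Cdk2 act. Mitotic genes follow in G2 and M phase, when cyclin B and Cdk1 act, under Foxm1, B-Myb and the MuvB complex, which binds a promoter element called the cell cycle genes homology region (CHR). In the ovary the granulosa cells of growing follicles are the classical dividing cells. In whole tissue, fewer cells of a type and less RNA per cell cannot be told apart.

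The promoters of the members showed these elements as letters, and 5 stretches are printed because they carry the words by which S phase and mitotic genes are usually distinguished. The sequences are from RefSeq on the rat assembly GRCr8, which holds a window of 250 bases before to 50 bases after the transcript start for 31 of the 40 members. Each stretch ends at the last base before the start and runs 5′ to 3′ on the gene's strand. Capitals mark the E2F word or the CHR word, with the CCAAT box wherever it falls inside a stretch.
Mcm6, chr13:42404353-42404502, minus strand: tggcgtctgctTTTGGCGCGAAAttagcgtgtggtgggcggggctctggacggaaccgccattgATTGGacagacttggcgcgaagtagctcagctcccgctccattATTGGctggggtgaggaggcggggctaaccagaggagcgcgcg
Mcm2, chr4:122918095-122918154, minus strand: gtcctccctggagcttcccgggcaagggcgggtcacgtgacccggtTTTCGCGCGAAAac
Cdk1, chr20:19265193-19265292, plus strand: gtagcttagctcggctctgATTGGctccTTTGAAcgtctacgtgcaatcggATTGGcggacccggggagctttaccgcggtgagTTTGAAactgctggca
Top2a, chr10:84473094-84473193, minus strand: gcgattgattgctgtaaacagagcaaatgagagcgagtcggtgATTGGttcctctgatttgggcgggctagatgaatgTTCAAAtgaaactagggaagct
Mki67, chr1:199952594-199952723, minus strand: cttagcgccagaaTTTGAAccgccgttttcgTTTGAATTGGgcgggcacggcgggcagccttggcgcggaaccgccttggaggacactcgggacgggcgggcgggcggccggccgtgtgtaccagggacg

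The E2F words searched were TTTCCCGC, TTTGGCGC, TTTGCCGC and TTTCGCGC, the CHR word was TTTGAA and the CCAAT box was CCAAT, each on both strands. In Mcm6 and Mcm2 a pair of E2F words overlaps on opposite strands, and in Mki67 a CHR word overlaps a CCAAT box. An E2F word stood in 5 of the 7 S phase windows (71.4%) and in 1 of the 21 G2/M windows (4.76%), that of Cdk1, against 2.14% of all 33469 promoter windows in the table. A CHR word stood in 14 of the 21 G2/M windows (66.7%) and in 1 of the 7 S phase windows (14.3%), that of Mcm2, against 18.3% of all windows. All 14 G2/M windows had a CHR word within 100 bases of the start or after it, a position shared by 8.21% of all windows and by 0 of the 7 S phase windows. The CCAAT box was frequent in both groups, in 6 of 7 S phase and 17 of 21 G2/M windows, against 37.5% of all windows. A match is a run of letters, not a measured binding site, and a window without one says only that these letters are not in it.

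**Figure D1:**
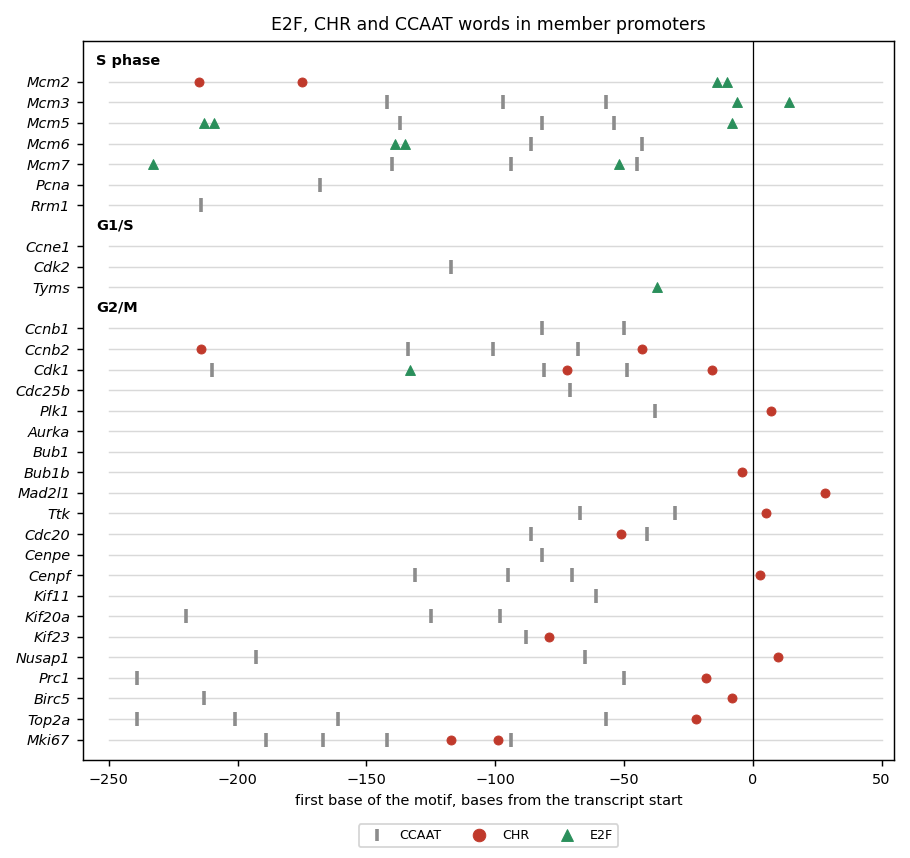
Positions of the E2F, CHR and CCAAT words in the promoter windows of 31 members, with the first base of each word in bases from the transcript start on the x axis and 1 line per gene. E2F words lie in 5 of 7 S phase windows and CHR words in 14 of 21 G2/M windows.

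The deposited values are logarithms, read here as log2, of each probe set relative to its own median over the 6 arrays, so levels are unknown and genes cannot be ranked by abundance or filtered for low signal. The presence of ovarian markers could for the same reason not be checked as a level. With this centring, the nearest pools of groups that do not overlap lie equally far above and below 0 in a gene with 1 probe set. Array medians over probe sets were between -0.0094 and 0.0099. Lean pool 3 stood apart in 18 hybridization control probe sets, with a mean of 0.51 against -0.24 to 0.045 in the other pools. The widest spread over probe sets was that of overfed pool 1, with an SD of 0.29 against 0.14 in overfed pool 2.

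Of the 38 measured members, 31 had a higher mean in the overfed than in the lean pools and 7 a lower one, with a median log2 difference of 0.15 against 0.0079 over all genes. None passed the adjusted threshold: limma's test over all 14217 genes gave 0 genes with an adjusted p under 0.05 (0%), and the lowest adjusted p of a member was 0.529. At an unadjusted limma p under 0.05, 9 members were higher in overfed ovaries, which is 23.7% of 38 where 2.76% of all genes were called higher. At the same threshold 1 member was lower, Aurkb, where 4.42% of all genes were called lower. The groups did not overlap in 13 members with higher overfed pools, against 7.09% of all genes, and in 1 member with lower overfed pools, against 6.35%. Because the members were chosen with earlier results of these data known, these shares describe the list and are no test. The differences were small, at most 1.36-fold among the members that were higher.

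**Figure D2:**
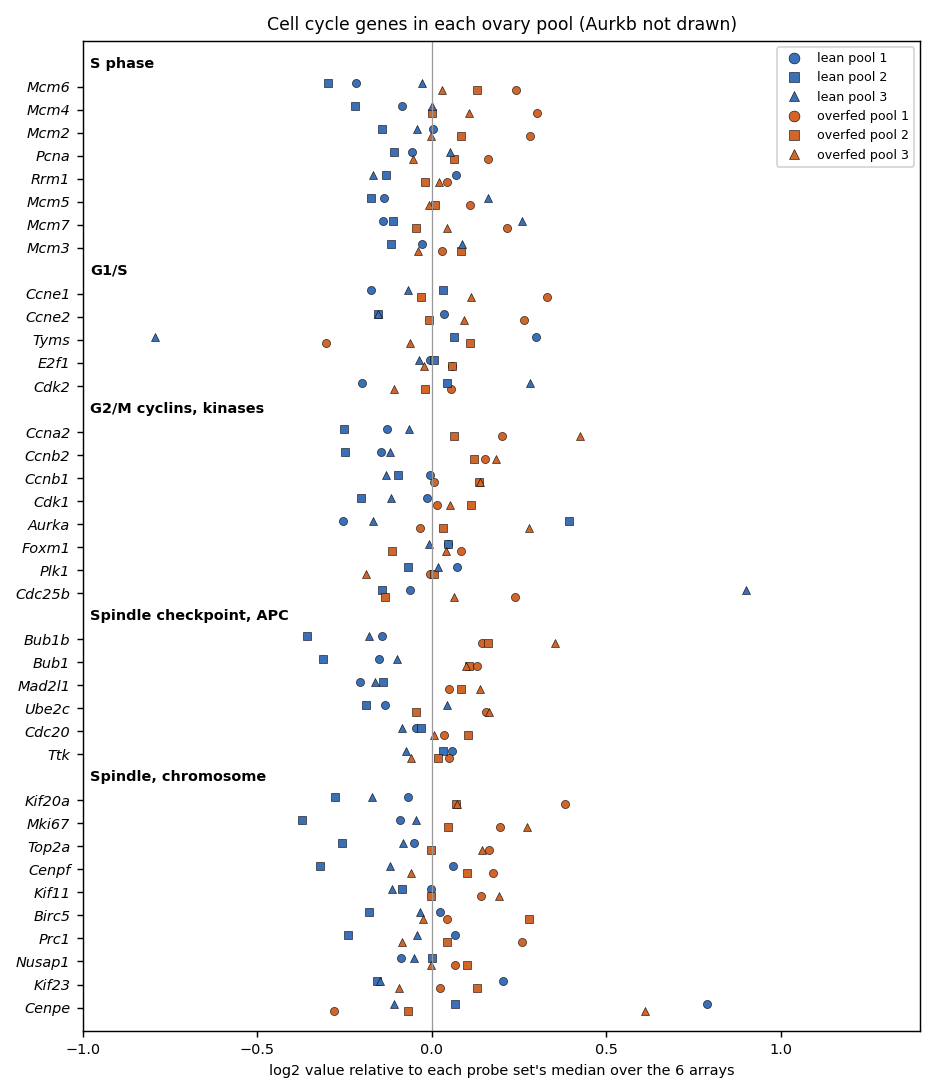
Log2 values of 37 members (Aurkb is not drawn) in the 3 lean and 3 overfed pools, relative to the median of the 6 arrays, grouped by role and ordered by the difference within a role. The 3 overfed pools lie to the right of the 3 lean pools in 13 genes, among them Bub1b, Bub1, Ccnb2 and Mcm6, whereas Tyms and Cdc25b have 1 lean pool far from the other 5.

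The replication members are the subunits of the MCM helicase, which unwinds DNA at origins, with the sliding clamp Pcna and the ribonucleotide reductase subunit Rrm1. All 8 measured members had a higher overfed mean, with differences between 0.046 and 0.32 and a median of 0.093. Mcm6, a helicase subunit, had values of -0.22, -0.30 and -0.029 in lean pools 1, 2 and 3, and 0.24, 0.13 and 0.029 in the corresponding overfed pools. Its overfed pools all lay above its lean pools, and it was the 1 replication member at an unadjusted limma p under 0.05 (difference 0.32, SE 0.10, 1.24-fold, limma's adjusted p = 0.595). It lost that call without lean pool 1 (0.30), lean pool 2 (0.26) or overfed pool 1 (0.26). Mcm4 differed by 0.24 and Mcm2 by 0.18, and in both the groups overlapped. In each the highest pool was overfed pool 1, at 0.30 in Mcm4 and 0.28 in Mcm2. Mcm7, Mcm5 and Mcm3 had their highest value in lean pool 3 instead, at 0.26, 0.16 and 0.085, and differed by 0.069, 0.087 and 0.046. In Mcm3 overfed pool 2 was nearly equal to lean pool 3, also at 0.085. The helicase is built from its subunits in equal number. Their differences on the array ran from 0.046 in Mcm3 (SE 0.082) to 0.32 in Mcm6 (SE 0.10). Whether the subunits differ from one another was not tested. Pcna and Rrm1 differed by 0.094 and 0.091, with SEs of 0.087 and 0.086.

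As gene means, the members of the G1/S step did not pass even the unadjusted threshold. The cyclins E that activate Cdk2 before S phase, Ccne1 (SE 0.11) and Ccne2 (SE 0.10), each differed by 0.21. Ccne2, the member of this step with the lowest unadjusted p, had values of 0.035, -0.15 and -0.15 in lean and 0.26, -0.0078 and 0.091 in overfed pools. In one of its probe sets the groups did not overlap (difference 0.27), and that probe set had an unadjusted limma p under 0.05 by itself. In the other probe set the groups overlapped (0.14) and the threshold was not passed. Cdk2 itself was at -0.067 (SE 0.13) and the transcription factor E2f1 at 0.044 (SE 0.066). Tyms, the thymidylate synthase that supplies dTTP for replication, had values of 0.30, 0.063 and -0.79 in lean and -0.30, 0.11 and -0.063 in overfed pools. Lean pool 3 was its lowest pool by far, and the difference of 0.058 became -0.27 without that pool and -0.039 without overfed pool 2.

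Among the cyclins and kinases that drive entry into mitosis, Ccnb2 and Ccna2 were higher at an unadjusted limma p under 0.05. Ccnb2, a B-type cyclin that activates Cdk1, was at -0.14, -0.25 and -0.12 in lean and 0.15, 0.12 and 0.18 in overfed pools. The overfed pools of Ccnb2 were close together and all above the lean pools (difference 0.32, SE 0.071, 1.25-fold, limma's adjusted p = 0.529). Ccna2, the cyclin of S phase and G2, was at -0.13, -0.25 and -0.065 in the lean and 0.20, 0.065 and 0.42 in the overfed pools. The difference of 0.38 (SE 0.11, limma's adjusted p = 0.562) came without overlap between the groups, and overfed pool 3 was the highest pool. Ccnb1 and Cdk1, which together form the mitotic kinase, each differed by 0.17 without overlap between the groups, but lean pool 1 and overfed pool 1 were nearly equal, at -0.0059 and 0.0059 in Ccnb1 and at -0.013 and 0.013 in Cdk1. For Ccnb1 the lack of overlap held for the mean of its 2 probe sets, and in one of them the groups overlapped. Neither gene passed the unadjusted threshold.

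The other mitotic regulators of this group did not share that pattern. Plk1, a kinase of mitotic entry and exit, was at -0.07 (SE 0.085), and Foxm1, the transcription factor of the G2/M wave, at -0.026 (SE 0.079). The 2 probe sets of Foxm1 disagreed in sign, at 0.0067 and -0.059. The first had values of -0.016, 0.016 and 0.064 in the lean and -0.024, -0.087 and 0.19 in the overfed pools, and the second had 0.11, 0.078 and -0.078 in the lean and 0.19, -0.14 and -0.12 in the overfed pools. Aurka, the kinase of spindle poles, differed by 0.10 (SE 0.18), with its highest value, 0.39, in lean pool 2 and its lowest, -0.25, in lean pool 1. Cdc25b, the phosphatase that activates Cdk1, stood at 0.90 in lean pool 3 and between -0.14 and 0.24 in the other 5 pools, and its difference of -0.18 became 0.16 without lean pool 3.

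The spindle checkpoint holds cells before anaphase until every chromosome is attached, by restraining the anaphase-promoting complex. Of the 6 members of the checkpoint and of that complex, 3 were higher at an unadjusted limma p under 0.05, where 2.76% of all genes were. Bub1b, which encodes the checkpoint protein BubR1, was at -0.14, -0.36 and -0.18 in lean and 0.14, 0.16 and 0.35 in overfed pools. This was the largest difference among the members that were higher (0.45, SE 0.096, 1.36-fold, limma's adjusted p = 0.529). Bub1, the kinase that recruits the checkpoint to kinetochores, was at -0.15, -0.31 and -0.099 in the lean and at 0.13, 0.11 and 0.099 in the overfed pools. Its overfed pools lay within a narrow band above the lean pools (difference 0.30, SE 0.080, limma's adjusted p = 0.529). Mad2l1, which encodes Mad2, the inhibitor of Cdc20, was at -0.21, -0.14 and -0.16 in the lean and at 0.049, 0.083 and 0.14 in the overfed pools (difference 0.26, SE 0.067, limma's adjusted p = 0.529). All 3 of its probe sets were higher, by 0.17, 0.26 and 0.35. In the probe set at 0.17 the groups overlapped, and only that at 0.35 had an unadjusted limma p under 0.05 by itself.

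The activator and the ubiquitin-conjugating enzyme of the anaphase-promoting complex were higher without passing the unadjusted threshold. Cdc20, the activator, differed by 0.10 (SE 0.067) as the mean of 5 probe sets. One of them was at -0.12, -0.18 and -0.27 in the lean and 0.15, 0.20 and 0.12 in the overfed pools. It had a difference of 0.35 and no overlap, and was the only one with an unadjusted limma p under 0.05 by itself. In each of the others the groups overlapped, though not in the mean of the 5. A probe set of the opposite sign differed by -0.0096, with 0.010, 0.0089 and -0.0089 in the lean and -0.098, -0.035 and 0.11 in the overfed pools, and the remaining 3 differed by 0.13, 0.041 and 0.0012. Ube2c, the enzyme, was at 0.18 (SE 0.098). Ttk, the checkpoint kinase Mps1, was at -0.0034, and its 2 probe sets had opposite signs, 0.071 and -0.077. The probe set at 0.071 had -0.27, 0.064 and 0.028 in the lean and 0.099, -0.034 and -0.028 in the overfed pools, while the other had 0.38, 0.00 and -0.18 in the lean and 0.00, 0.068 and -0.094 in the overfed pools. Lean pool 1 was thus the lowest pool in one and the highest in the other.

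Of the 10 genes of kinetochore, spindle and chromosome, 3 were higher at an unadjusted limma p under 0.05, where 2.76% of all genes were. Kif20a, a kinesin of the spindle midzone and cytokinesis, was at -0.069, -0.28 and -0.17 in the lean and at 0.38, 0.069 and 0.071 in the overfed pools, highest in overfed pool 1 (difference 0.35, SE 0.11, limma's adjusted p = 0.604). Mki67, which encodes the proliferation marker Ki-67, was at -0.091, -0.37 and -0.045 in the lean and at 0.20, 0.045 and 0.27 in the overfed pools. The difference was 0.34 (SE 0.11, 1.27-fold, limma's adjusted p = 0.604). Top2a, the topoisomerase that untangles sister chromatids, was at -0.050, -0.26 and -0.082 in the lean and at 0.16, -0.0030 and 0.14 in the overfed pools (difference 0.23, SE 0.090, limma's adjusted p = 0.657). In all 3 genes lean pool 2 was the lowest pool, and the groups did not overlap. For Top2a the lack of overlap held for the mean of its 2 probe sets. The groups overlapped in one of them (difference 0.16) but not in the other (0.31). Each of the 3 genes lost its call when lean pool 2 was left out, with differences of 0.29 in Kif20a, 0.24 in Mki67 and 0.17 in Top2a. Mki67 also lost it without overfed pool 3 (0.29), and Top2a without lean pool 3 (0.26), overfed pool 1 (0.20) or overfed pool 3 (0.21).

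The other spindle genes ranged from -0.16 to 0.20. Cenpf differed by 0.20, the spindle kinesin Kif11 by 0.18, the survivin gene Birc5 by 0.16, the midzone bundler Prc1 by 0.14 and Nusap1 by 0.10, none at an unadjusted limma p under 0.05. For Kif11 that held for the mean of its 2 probe sets. One of them differed by 0.29 without overlap and had an unadjusted limma p under 0.05 by itself. The other differed by 0.062, and its groups overlapped. The probe sets of Kif23, a kinesin of cytokinesis, had opposite signs, -0.020 and 0.12. The first stood at 0.078, -0.25 and 0.18 in the lean and -0.016, 0.016 and -0.056 in the overfed pools, and the second at 0.33, -0.060 and -0.47 in the lean and 0.060, 0.24 and -0.13 in the overfed pools. Cenpe, the kinetochore kinesin, had its highest values in lean pool 1 (0.79) and overfed pool 3 (0.61) and differed by -0.16 (SE 0.30).

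Among the 37 members other than Aurkb, lean pool 2 was the lowest of the 6 pools in 20 (54.1%), against 13.5% of all genes. Overfed pool 1 was the highest pool in 13 (35.1%), against 19.2% of all genes. When lean pool 2 was left out, 6 members were higher at an unadjusted limma p under 0.05, and 2.63% of all genes. Leaving out lean pool 3 and overfed pool 1 together, which was chosen after seeing the data, left 7 members and 2.60% of all genes.

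The S phase members and the G2/M members were compared within each pool, because cells in S phase express the first set and cells about to divide the second. The mean of the 8 S phase members was -0.075, -0.16 and 0.040 in lean pools 1, 2 and 3, and 0.17, 0.038 and 0.012 in the corresponding overfed pools. The mean of the 24 G2/M members without Aurkb was -0.011, -0.14 and -0.048 in lean and 0.099, 0.056 and 0.11 in overfed pools. The G2/M means did not overlap between the groups, whereas in the S phase means lean pool 3 lay above overfed pools 2 and 3. The S phase mean was higher in overfed ovaries by 0.14 and the G2/M mean by 0.16. The gap between them, S phase minus G2/M, was 0.0013 ± 0.078 (SD, n = 3) in lean and -0.015 ± 0.087 (SD, n = 3) in overfed pools, so that it differed by less than the spread between pools. The gap was above 0 in lean pool 3 (0.088) and overfed pool 1 (0.073), and lowest in overfed pool 3 (-0.10). The difference of the gap, -0.017, became 0.027 without lean pool 3 and 0.026 without overfed pool 3.

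**Figure D3:**
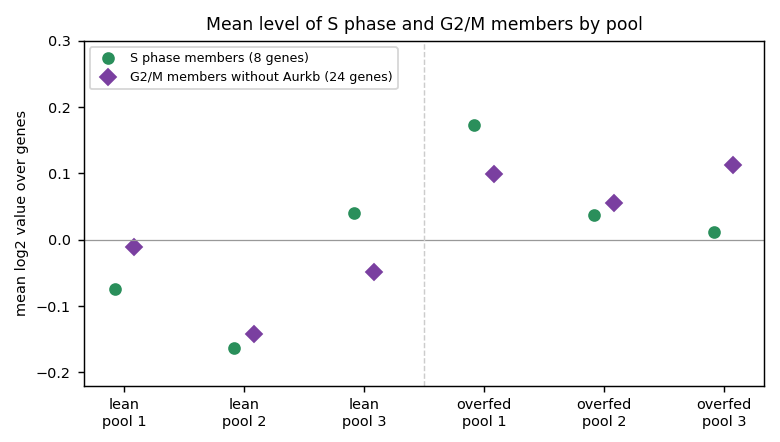
Mean log2 value of the 8 S phase members (circles) and of the 24 G2/M members without Aurkb (diamonds) in each pool, relative to the median of the 6 arrays. The G2/M means are -0.14 to -0.011 in the lean and 0.056 to 0.11 in the overfed pools, and the S phase mean of lean pool 3 lies among those of the overfed pools.

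Counted gene by gene, the G2/M set held 8 of 24 genes and the S phase set 1 of 8 at an unadjusted limma p under 0.05 and higher in overfed ovaries, and whether the sets differ was not tested. The rest of the pathway was read in the same way from 3 lists of genes that are not members. These lists too were chosen with earlier results of these data known. Over all genes, 52.6% had a higher overfed mean, 2.76% were called higher and 4.42% lower at an unadjusted limma p under 0.05. Of 73 other mitosis genes, 65 had a higher overfed mean, 22 (30.1%) were higher at that threshold and 1 was lower, with a median difference of 0.14. Of 41 other replication genes, 35 had a higher overfed mean, 1 was higher at that threshold and 0 were lower, with a median of 0.063. Its share of 2.44% called higher is near the 2.76% of all genes. A list of 32 genes held G1 cyclins, their kinases, E2F factors, pocket proteins, CDK inhibitors, MuvB subunits and others such as Myc. In it, 3 were higher at that threshold and 0 lower, with a median of 0.051. None of these genes passed limma's adjusted threshold, and whether the mitosis list differs from the replication list was not tested. The count of 22 mitosis genes was 12 when lean pool 2 was left out, 13 when overfed pool 3 was and 14 when lean pool 1 was. It was 10 when lean pool 3 and overfed pool 1 were left out at once. The replication count of 1 was 4 when lean pool 3 was left out, 2 when overfed pool 3 was and 0 when any of the other 4 pools was, and the G1 count of 3 was 1 when lean pool 3 or overfed pool 1 was.

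The mitosis genes with the lowest p-values were Depdc1 (0.43, SE 0.079), the centromere gene Cenpw (0.29, SE 0.065), the mitotic kinase Pbk (0.28, SE 0.065) and Sgo1 (0.30, SE 0.079), which protects cohesion at centromeres. Depdc1 was at -0.14, -0.24 and -0.17 in the lean and 0.31, 0.14 and 0.29 in the overfed pools. The groups did not overlap in any of these 4 genes. Among the replication genes, the polymerase subunit Pola1 was at 0.21 (SE 0.089), the clamp loader Rfc3 at 0.17, the fork protector Timeless at 0.22 and the flap endonuclease Fen1 at 0.15. Of the G1 list, Lin9, a subunit of the MuvB complex, was at 0.35, the phosphatase Cdkn3 at 0.26, the pocket protein Rbl1 at 0.29 and E2f5 at 0.14. The mitosis gene that was lower, named after its value was seen, was Cdca2, which targets protein phosphatase 1 to chromatin. It was at 0.16, 0.14 and 0.37 in the lean and -0.57, -0.13 and -0.15 in the overfed pools (difference -0.50, SE 0.14, limma's adjusted p = 0.529).

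**Figure D4:**
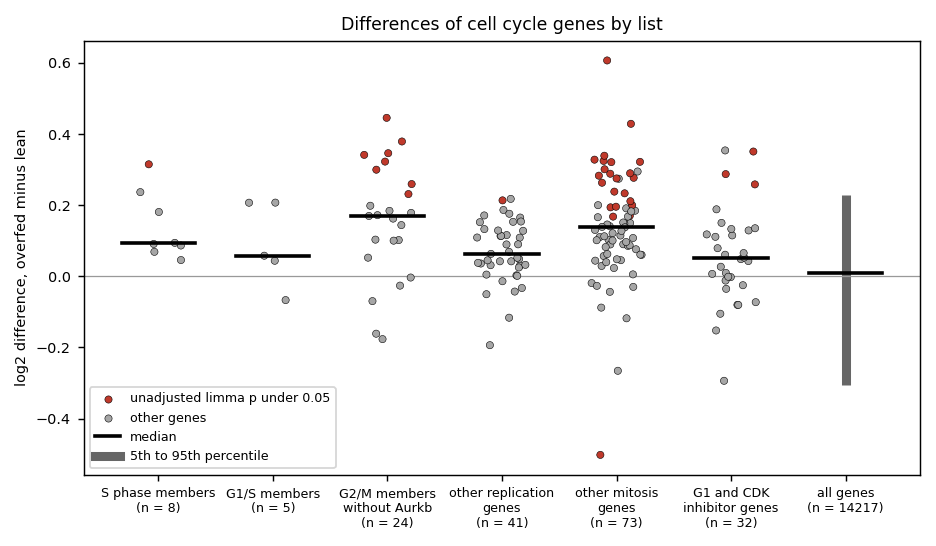
Log2 difference, overfed minus lean, of each gene in the 3 sets of members (S phase, G1/S and G2/M without Aurkb) and in 3 lists of other cell cycle genes, with the median of each as a line. Red points had an unadjusted limma p under 0.05, and the grey bar spans the 5th to 95th percentile of all 14217 genes. The median is 0.17 in the G2/M members without Aurkb and 0.14 in the other mitosis genes, against 0.063 in the other replication genes and 0.0079 over all genes.

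The CHR word was present in the windows of several members that were higher at the unadjusted threshold, but not of all. It began at base -4 in Bub1b, at 28 in Mad2l1, at -43 and -214 in Ccnb2, at -22 in Top2a and at -117 and -99 in Mki67, counted from the transcript start. The windows of Bub1 and Kif20a held none, and the table has no window for Ccna2. In Mcm6 the E2F words began at -139 and -135. Among uncalled G2/M members, Birc5, Cdc20, Cdk1, Cenpf, Kif23, Nusap1, Prc1, Plk1 (at 7) and Ttk (at 5) also held a CHR word. The windows of Aurka, Ccnb1, Cdc25b, Cenpe and Kif11 held none. The word was thus frequent in called and uncalled G2/M members alike.

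Markers of other cell types were read beside these genes. Of 9 macrophage markers, 8 were higher and 3 passed the unadjusted threshold, where 2.76% of all genes were called higher, and the list's mean ranged from -0.16 to -0.053 in the lean and from 0.056 to 0.20 in the overfed pools. Of 11 granulosa cell markers, 9 were higher and 1 passed, with overlapping means of -0.25 to 0.013 in lean and -0.13 to 0.26 in overfed pools. The 10 lymphocyte markers had a median difference of 0.032, and the 9 endothelial markers one of -0.0026. The part of these cells in the cell cycle differences was not tested.

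Aurkb, the kinase of the chromosomal passenger complex, which corrects faulty attachments of chromosomes and drives cytokinesis, was 1 of the 7 members with a lower overfed mean and had the largest difference of all 38. Its values were 0.44, 0.35 and 0.48 in lean and -2.17, -0.35 and -0.94 in overfed pools. The lean pools were close together and the overfed pools far apart, with no overlap between the groups. The difference was -1.58 (SE 0.42), 2.98-fold lower in overfed ovaries, below an unadjusted limma p of 0.05 and with an adjusted p of 0.529. It rested on 1 probe set. Without overfed pool 1 the difference was -1.06, and without any other single pool it was between -1.98 and -1.55. It was -1.03 when lean pool 3 and overfed pool 1 were left out at once. Aurkb is described apart because its value was known, so its position among the members is no test.

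The partners of Aurkb in the complex did not share its direction. Incenp, the scaffold, differed by 0.063 (SE 0.077), Birc5, which encodes survivin, by 0.16 (SE 0.11), and Cdca8, which encodes borealin, by 0.19 (SE 0.12), none at an unadjusted limma p under 0.05. In overfed pool 1, where Aurkb was lowest, they stood at 0.014, 0.042 and 0.024. As a measure of likeness, Pearson's correlation with Aurkb over the 6 pools was below 0 in 32 of the 37 other members, with a median of -0.60, against 7105 of all 14216 genes and a median of 0.00035. This correlation includes the difference between the groups and is a description.

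The 10 genes most like Aurkb by that correlation, of 14216, were Cfap100, Liat1, Lrrc56, Lrrc51, Dynlrb2, Sst, Spa17, Itgb6, Hbp1 and Fhad1, with coefficients from 0.991 to 0.997. Among them, Cfap100 encodes a protein of cilia and flagella, Lrrc56 is needed for dynein arms of motile cilia, and Dynlrb2 is a dynein light chain. The functions of the others are not given here, and whether cilium genes were frequent in this list was not tested. Dynlrb2 was at 0.69, 0.25 and 0.75 in the lean and -2.25, -0.25 and -0.99 in the overfed pools, with overfed pool 1 the lowest pool, as in Aurkb. Likeness by correlation takes no account of size: Hbp1 differed by -0.094, against -1.58 in Aurkb. Of the other members of the module, the closest to Aurkb had a coefficient of 0.33.

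All 10 measured markers of oviduct and ciliated epithelium, of 19 listed, were lower in overfed ovaries, 9 of them at an unadjusted limma p under 0.05, where 4.42% of all genes were called lower, with differences from -1.69 to -0.70. Their mean was 0.50, 0.13 and 0.84 in the lean and -1.05, -0.18 and -0.75 in the overfed pools. The axonemal gene Rsph1 (0.76, 0.27 and 0.78 in lean, -2.02, -0.27 and -0.96 in overfed pools) had a coefficient of 0.989 with Aurkb, whereas Pax8, a transcription factor of the duct epithelium, had 0.39. In overfed pool 1 Aurkb lay below all 10 markers. The neighbours of Aurkb on its chromosome, looked up after its value was seen, differed among themselves. Ctc1 and Borcs6, the nearest measured genes on either side in RefSeq's gene order, differed by 0.022 and 0.026. Beyond Ctc1, Pfas differed by 0.095. Beyond Borcs6, Tmem107, a component of the ciliary transition zone, differed by -0.63 (SE 0.17) and Vamp2 by -0.16 (SE 0.095). The part of ciliated cells in the value of Aurkb was not tested.

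**Figure D5:**
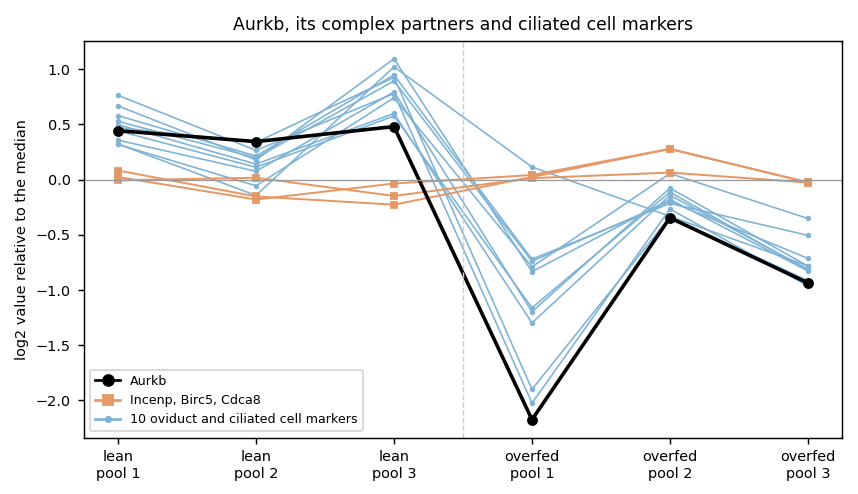
Log2 values of Aurkb (black), of its complex partners Incenp, Birc5 and Cdca8 (orange) and of 10 markers of oviduct and ciliated epithelium (blue) in each pool, relative to the median of the 6 arrays. Aurkb is at -2.17 in overfed pool 1 and -0.35 in overfed pool 2, while the 3 partners stay between -0.23 and 0.28.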

How the data were processed

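The authors deposited 1 log value per probe set and array, read here as log2. GCOS, Affymetrix's array software, is the tool in the submitters' processing notes. For summary, normalization, filters and logarithm base the answer is: not given in the sources used here. Natural logarithms cannot be told from log2, in which case folds are too small. Every probe set's median over the 6 arrays was 0. Gene names came from the platform annotation, updated through Entrez identifiers in RefSeq's gene table, which held 20758 of 20826 identifiers. Of 31042 probe sets, 436 with several genes and 9780 unnamed were left out, as were 57 array controls.

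Gene means were compared in limma 3.58.1 (R 4.3.3, lmFit and eBayes, two-sided, no covariate) with Benjamini-Hochberg adjustment over 14217 genes, tested on simulated data. Figures used matplotlib 3.10.9. Members and lists were chosen with earlier results of these data known. Values in every pool are given for members at an unadjusted p under 0.05, for Aurkb, for members whose probe sets disagree in sign and for the lowest p of a role without such a member. From each other list the 4 lowest p-values are named, and for Aurkb its partners and 10 most correlated genes. Other lists read were theca (median difference 0.098), luteal (-0.053), oocyte (-0.072) and erythroid markers (-0.17). Samples with the same pool number were not treated as pairs.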

Additional observations from a re-analysis of the deposited data

How the results depend on the processing

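Levels are unknown, so precision is limited by the number of arrays, and unadjusted calls at 3 against 3 pools moved with single pools. Members other than those named here kept their sign under every alternative in which they were tested, which was 14 for 26 of the 38 members and, without the filter on small SD, 13 for the others. Of the 10 members called at an unadjusted p under 0.05, Aurkb, Bub1b and Ccna2 were called in all 15 settings, Bub1 and Ccnb2 in 14, Mad2l1 in 13, Kif20a and Mki67 in 12, Mcm6 in 11 and Top2a in 7. The cause of these moves was not tested.

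The count of 9 higher members was 6 to 12 when single pools were left out and 2 when the 50% of genes with the smaller SD were left out (2 genes then passed the adjusted threshold). All 10 called members were still tested under that filter, and 3 of them kept their call. The filter, under which 7109 genes were tested, gave 84 genes higher, 418 lower, 2 other mitosis, 0 other replication and 1 G1 gene higher. Without lean pool 3 and overfed pool 1, an alternative added after seeing the data, 397 genes were lower, and 10 mitosis, 2 replication and 1 G1 gene were higher. The G1 count was also 1 under array median centring, array weights and quantile normalization. The replication count was 0 under median centring, quantile normalization and 1 representative probe set per gene, and 3 with array weights. Leaving out single pools gave 240 (without overfed pool 3) to 440 genes higher, 401 (without lean pool 3) to 754 lower, 12 to 19 mitosis genes higher and 1 to 2 lower, 0 to 4 replication genes higher and 0 to 1 lower, 1 to 3 G1 genes higher and 0 to 1 lower, and a gap of S phase minus G2/M of -0.061 to 0.027.

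Deviations of same-numbered pools correlated at 0.109, 0.153 and -0.375, and those of differently numbered pools at -0.449 to 0.485. Deviations from a group mean cancel within the group, so these correlations cannot decide whether pools were paired. The numbers were not taken as pairing. With pool number as a replicate block 9 members were higher and 1 lower, with 14 mitosis and 0 replication genes higher.

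Foxm1 (0.0067), Kif23 (-0.020) and Ttk (0.071) turned with 1 representative probe set, Tyms with array weights (-0.029). Without lean pool 3 and overfed pool 1 Cdc25b was at 0.066, Cdk2 at 0.014, Kif23 at -0.0062 and Tyms at -0.16. With single pools left out Aurka ranged from -0.019 to 0.30, Cdc25b from -0.36 to 0.16, Cdk2 from -0.19 to 0.053, Cenpe from -0.42 to 0.11, Foxm1 from -0.067 to 0.033, Kif23 from -0.0091 to 0.17, Mcm3 from -0.0028 to 0.099, Mcm7 from -0.0030 to 0.20, Ttk from -0.043 to 0.028 and Tyms from -0.27 to 0.28.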
